A study of Mus musculus with 6 samples.

Results

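Glycolysis splits glucose into pyruvate, and lactate dehydrogenase and lactate transporters carry the product out of the cell. Described here are genes of glucose uptake, upper and lower glycolysis, lactate and pyruvate handling and the pentose phosphate branch, with the hypoxia factor Hif1a, in mouse CD8+ T cells. Of 34 genes listed by name for these steps, 31 averaged 1 FPKM or more across the 6 libraries of the study and were kept, out of 18122 rows in the table. FPKM divides the fragments of a gene by its length in kilobases and by the depth of the library. The list was drawn up by function, with earlier results of these data known, and its minimum used only that mean over all libraries. Just outside the minimum stood the lactate exporter Slc16a3 with a mean of 0.995 FPKM, and below it Pfkfb4 with 0.836 FPKM and Aldoc with 0.369 FPKM. Bpgm, with a mean of 4.62 FPKM, was the lowest gene inside it.

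The cells were CD8+ T cells from lymph nodes of wild-type (WT) mice and of Dusp2-/- mice, which lack the MAP kinase phosphatase DUSP2. All were cultured for 18 h on plates coated with anti-CD3 (1 µg/mL), and received anti-CD28 (1 µg/mL), IL-4 (20 ng/mL) and the interferon IFN-α (50 ng/mL), a mixture meant to yield virtual memory T cells in vitro. Sorting on CD44, a surface receptor for hyaluronan, then gave a fraction with the highest signal (CD44hi, 2 libraries per genotype) and one with low signal (CD44lo, 1 library per genotype). Strain, age and sex of the mice are not given in the labels used here, nor whether libraries came from separate animals, so a p-value here reflects only how these samples spread, which may be technical. No unstimulated cells are among the samples, so both fractions and both genotypes had met the same antibodies and cytokines. The treatment text of the labels names Cd4-Cre Rpa1fl/fl mice where the titles and the genotype field give Dusp2-/-.

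Glucose enters T cells through facilitative transporters and is trapped by hexokinase. The upper steps spend ATP and end with triose phosphates, and the lower steps regain ATP and end with pyruvate. Activated T cells are known for turning much of this pyruvate into lactate even when oxygen is present, while pyruvate dehydrogenase, held back by its kinases, would pass it to mitochondria. The pentose phosphate branch leaves the pathway after hexokinase and yields NADPH and ribose for nucleotides.

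Recovered reads, whole reads worked back from the FPKM values, numbered 23490008 in the Dusp2-/- CD44lo library and 42816073 to 55830235 in the others. Dusp2 stood at 82.6 to 116 FPKM in the WT libraries and at no more than 0.0283 FPKM in the Dusp2-/- libraries, while Rpa1 ran from 27.4 to 41.4 FPKM in all 6. Cd44 followed the sort, with 65.3 to 79.9 FPKM in CD44hi and 1.33 to 1.43 FPKM in CD44lo. The CD8 T cell genes analysed (Cd8a, Cd8b1, Cd3d, Cd3e and Cd3g) summed to 915 to 1309 FPKM, and the CD4 T cell genes to no more than 0.801 FPKM. Of the marker lists of other cells, neutrophil genes summed to at most 0.152, erythroid genes to at most 0.375, macrophage and monocyte genes to at most 4.11 and dendritic cell genes to at most 3.32 FPKM. The stroma and endothelium list (5.26 to 14.5 FPKM) was nearly all Pecam1, and the natural killer list (66.7 to 92.3 FPKM) nearly all Eomes, which CD8+ T cells also express. In the B cell list 3 of 7 genes were analysed, and only Cd79b averaged 1 FPKM or more, with 6.92 FPKM in WT CD44lo, 12.2 and 9.88 FPKM in WT CD44hi, 11.2 FPKM in Dusp2-/- CD44lo, and 22.4 and 24.5 FPKM in Dusp2-/- CD44hi. The Dusp2-/- CD44hi pair stood apart in Xist, the RNA of the inactive X chromosome, with 15.1 and 15.5 FPKM. Xist was at 0 FPKM in Dusp2-/- CD44lo and at no more than 0.00641 FPKM in WT, and the Y-linked Ddx3y was at 10.3 to 13.6 FPKM in all 6 libraries. Xist thus differed between the Dusp2-/- fractions, so differences between them cannot be read as those of a sort of the same cells. The labels used here do not say which libraries share animals or a culture, so the origin of the Dusp2-/- CD44hi pair cannot be told apart from its genotype and fraction. Without that pair neither the genotype comparison in CD44hi nor the fraction comparison in Dusp2-/- could be made, while the levels compared in WT do not include it. The deposited values are from bulk RNA, in which fewer cells of a type and less RNA per cell cannot be told apart.

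RefSeq promoter sequences (assembly GRCm38.p6, the 250 bases before the transcript start) were found for 30 of the 31 genes, the exception being Slc2a3. Those of Hk2, Slc16a1, Slc2a1 and Tpi1 are shown because, of the genes higher in CD44hi in both genotypes, they had the largest difference. Each reads 5′ to 3′ on the gene's strand. Capitals mark matches on either strand to ACGTG, a core bound by hypoxia-inducible factors, or to CACGTG, the E-box bound by the MYC and MLX families. A CACGTG contains ACGTG on both strands.
Hk2, chr6:82774455-82774704, minus strand: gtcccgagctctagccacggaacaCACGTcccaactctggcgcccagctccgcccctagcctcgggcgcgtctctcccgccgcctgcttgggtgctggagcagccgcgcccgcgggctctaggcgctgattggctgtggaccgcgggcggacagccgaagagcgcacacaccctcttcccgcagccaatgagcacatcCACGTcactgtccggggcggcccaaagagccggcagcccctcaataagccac
Slc16a1, chr3:104638414-104638663, plus strand: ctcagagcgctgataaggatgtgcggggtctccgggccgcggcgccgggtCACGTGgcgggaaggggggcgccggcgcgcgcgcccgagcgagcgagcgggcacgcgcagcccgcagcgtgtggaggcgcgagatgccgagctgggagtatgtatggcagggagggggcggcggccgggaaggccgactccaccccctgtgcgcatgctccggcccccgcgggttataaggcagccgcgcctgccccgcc
Slc2a1, chr4:119108495-119108744, plus strand: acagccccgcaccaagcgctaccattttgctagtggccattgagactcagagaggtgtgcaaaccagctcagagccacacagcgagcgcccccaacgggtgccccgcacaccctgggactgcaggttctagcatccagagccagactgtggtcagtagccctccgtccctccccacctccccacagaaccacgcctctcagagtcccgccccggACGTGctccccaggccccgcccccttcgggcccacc
Tpi1, chr6:124814159-124814408, minus strand: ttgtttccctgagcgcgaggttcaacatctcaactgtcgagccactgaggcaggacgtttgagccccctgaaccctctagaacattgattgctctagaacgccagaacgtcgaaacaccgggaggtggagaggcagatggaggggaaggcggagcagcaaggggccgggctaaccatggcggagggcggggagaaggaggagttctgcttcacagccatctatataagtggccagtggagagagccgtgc

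The Hk2 window held 2 copies of ACGTG, the Slc2a1 window 1, and the Slc16a1 window 1 CACGTG, while neither motif was in these letters of Tpi1. ACGTG was in at least 1 promoter of 12 of the 30 genes (40%), against 26.7% of 7588 tested genes and 18.5% of all 27025 genes in the RefSeq table. CACGTG was in 5 of the 30 (16.7%), namely Hif1a, Ldha, Pfkfb3, Pfkm and Slc16a1, against 10.6% of tested genes and 6.86% of all. Some genes have several promoters in the table, 43 for the 30 genes. By promoter, ACGTG was in 15 of those 43 (34.9%) in 23.2% of the 9579 windows of tested genes and in 16.6% of all 32851 windows. A match describes the sequence and was not tested for binding.

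Together the 31 genes summed to 2443 FPKM in WT CD44lo, 2667 FPKM in Dusp2-/- CD44lo, 2770 and 2978 FPKM in WT CD44hi, and 2964 and 2895 FPKM in Dusp2-/- CD44hi. Both CD44lo libraries were below all 4 CD44hi libraries, and the CD44hi libraries of the genotypes overlapped. The genes held 0.963 to 1.14% of recovered reads. Gapdh was the most abundant with a mean of 485 FPKM, above Ldha in each library. Ldha (356), Pgk1 (336), Pkm (271) and Aldoa (263 FPKM) came next, and the ranges of neighbours in this order overlapped, so that Pgk1 was above Ldha in both WT CD44hi libraries and below it in the other 4. At the low end were Bpgm, Pfkm, Slc2a3 and Ldhb, each with a mean under 10 FPKM.

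**Figure D1:**
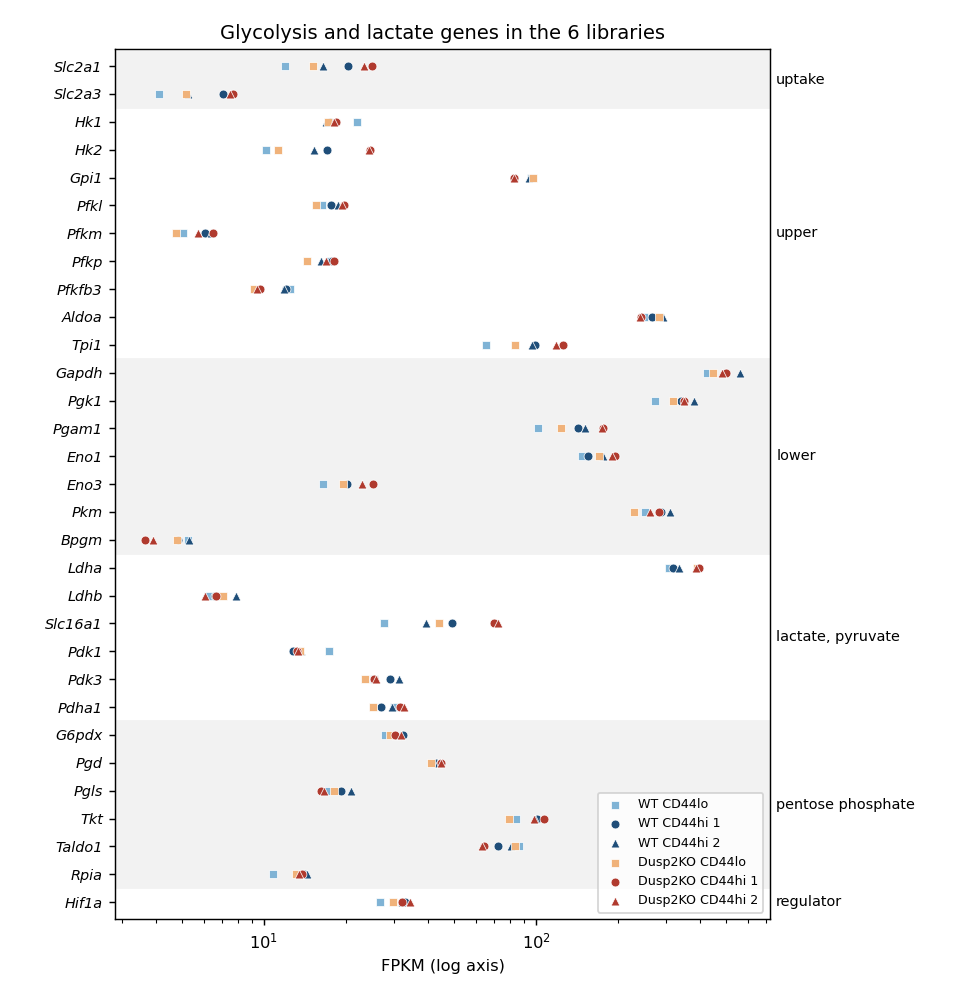
FPKM on a log axis for the 31 genes in each of the 6 libraries, ordered by step, with Dusp2KO standing for Dusp2-/-. Gapdh, Ldha, Pgk1, Pkm and Aldoa lie furthest to the right, all above 200 FPKM, and in Hk2, Slc2a1 and Slc16a1 the Dusp2-/- CD44hi points lie to the right of all others.

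The sort by CD44 asks how the expression of these genes differs between the 2 sorted fractions. Slc2a1, Hk2, Tpi1, Pgam1 and Slc16a1 rose in CD44hi in both genotypes, by 0.52 to 0.65 log2 units in WT and by 0.50 to 1.06 in Dusp2-/-. Gapdh, Pkm, Ldha, Aldoa and Eno1, which are among the most abundant of the genes, passed the test in neither genotype. Pgk1, also abundant, passed in WT alone. With quantile normalization Gapdh passed in both genotypes, and Pkm, Ldha and Eno1 in Dusp2-/-. Differences are given as log2(FPKM + 1), so that changes of low genes come out too small, and adjusted p-values are from limma over the 9691 genes that averaged 1 FPKM or more.

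In WT, 9 of the 31 genes rose (29.0%) and 2 fell (6.45%), where 15.4% and 10.7% of all genes tested were called higher and lower (26.1% in all). In Dusp2-/-, 9 rose (29.0%) and 1 fell (3.23%), against 23.6% and 16.5% of all genes (40.1% in all), so the share that rose was near the background there. Adjusted for genotype, over 4 against 2 libraries, 8 rose (25.8%) and 1 fell, against 16.6% and 10.8% (27.4% in all). The median difference of the 31 genes was 0.22 in WT, 0.13 in Dusp2-/- and 0.18 adjusted for genotype, and that of all genes was 0.05 in each. In 16 of the 31 genes all 4 CD44hi libraries lay above both CD44lo libraries, and in 2 (Gpi1 and Taldo1) below, as did 24.6% and 15.1% of all genes tested. With no minimum on FPKM, Hk1, Rpia, Tpi1 and Pgam1 were the calls left in WT, and Hk2, Tpi1 and Pgam1 those left in Dusp2-/-. Slc2a1 then had adjusted p = 0.141 in WT and 0.102 in Dusp2-/-, Slc16a1 0.128 and 0.0979, and Hk2 0.0535 in WT. Each CD44lo group is 1 library and was taken to vary as the CD44hi pairs do. The 11 calls in WT became 19 without WT CD44hi 1. The 10 in Dusp2-/- became 5 without Dusp2-/- CD44hi 1, 6 without Dusp2-/- CD44hi 2 and 18 without either of the WT CD44hi libraries, and the 9 adjusted for genotype became 5 without either Dusp2-/- CD44hi library. When each library was rescaled to the same FPKM total, 15 genes rose and 0 fell adjusted for genotype, and the median of all genes moved to 0.12. The background split also moved with scaling, from 1490 genes higher and 1037 lower in WT to 1253 and 1318 with median-ratio factors, and from 2285 and 1603 in Dusp2-/- to 3154 and 969 when rescaled.

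**Figure D2:**
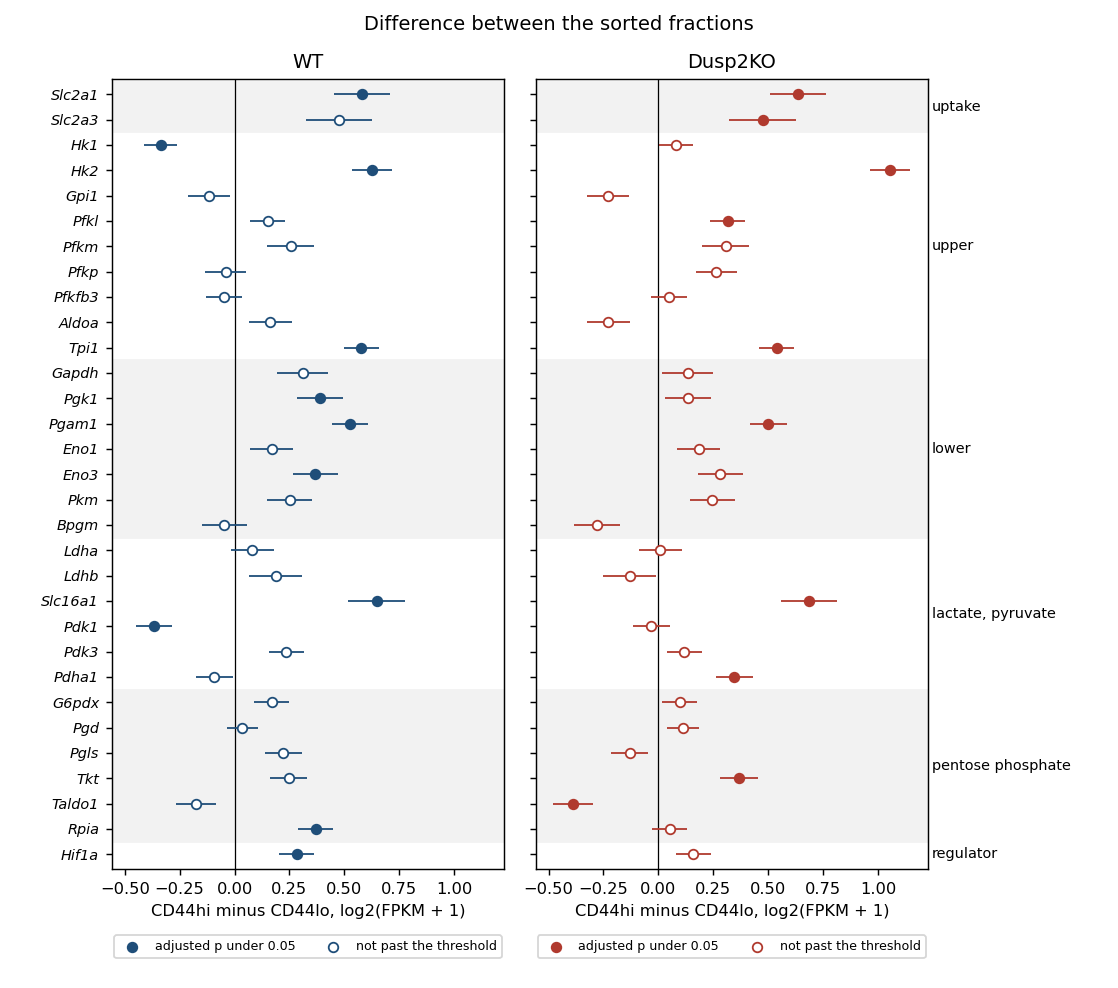
Difference between CD44hi and CD44lo on the log2(FPKM + 1) scale within WT (left) and within Dusp2-/- (right, marked Dusp2KO), with bars of 1 SE from the limma fit. Filled points pass an adjusted p of 0.05, and Slc2a1, Hk2, Tpi1, Pgam1 and Slc16a1 are filled and to the right of 0 in both panels.

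The genotype comparison asks what loss of Dusp2 goes with in CD44hi cells, over 2 against 2 libraries. Slc16a1, Hk2, Slc2a1, Tpi1 and Pgam1 rose in Dusp2-/-, by 0.25 to 0.68 log2 units, and each of these is also one of the genes above that rose with CD44. Bpgm, Pfkfb3, Pgls, Taldo1 and Pdk3 fell, by 0.23 to 0.34 log2 units. The comparisons share the CD44hi libraries, so the values of one are not independent of the other.

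These are 5 genes of 31 in each direction (16.1%), where 12.9% of all genes tested were called higher and 13.8% lower (26.7% in all), and the members' shares are near that background. The split moved with the scaling, to 5 higher and 3 lower with median-ratio factors, 7 and 4 with quantile normalization, and 8 and 0 with rescaling to a common total, which changed the split of all genes from 1248 higher and 1338 lower to 1292 and 914. The median of the 31 genes was 0.03 and that of all genes -0.02. The Dusp2-/- pair lay wholly above the WT pair in 13 genes and wholly below in 9, as it did in 32.0% and 36.2% of all genes tested. The replicates differed by a median of 0.04 log2 units over the 31 genes in Dusp2-/- and 0.11 in WT. Leaving out Dusp2-/- CD44hi 1 left 2 calls, leaving out Dusp2-/- CD44hi 2 left 3, and leaving out WT CD44hi 1 gave 16. With no minimum on FPKM, 0 of the 31 genes and 2 of 18122 rows passed in limma, although the 10 genes kept their differences, with adjusted p-values from 0.071 to 0.208, and 14 of the 31 had an unadjusted p under 0.05 in the fit with the minimum.

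Other measures moved with genotype. Mitochondrial genes held 2.03 and 2.15% of recovered reads in WT CD44hi against 2.73 and 2.94% in Dusp2-/- CD44hi, with 2.56% in WT CD44lo and 3.79% in Dusp2-/- CD44lo. Across 9691 genes the genotype difference in CD44hi correlated with gene length (Spearman rho 0.27), as did the difference between fractions in Dusp2-/- (0.34) and, with the other sign, in WT (-0.09). The interaction of genotype and fraction, described below, had the strongest such correlation (0.48), and the genotype difference in CD44lo had -0.33. The 31 genes had a median length of 3829 bases, against 4321 bases for all genes tested. With the trend on length removed from each library, 7 genes were higher and 3 lower in Dusp2-/- CD44hi. Of the 5 CD8 T cell genes analysed, Cd3e (-0.64), Cd3g (-0.45) and Cd3d (-0.40) fell in Dusp2-/- CD44hi and 0 rose. In Dusp2-/- 4 of the 5 fell with CD44, and in WT 1 did. The part of mitochondrial reads, of the CD3 genes and of Cd79b and Xist in the results on the 31 genes was not tested.

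Between the CD44lo libraries, with 1 per genotype and no test, 0 of the 31 genes differed 2-fold or more, as did 1.68% of all genes (0.795% higher and 0.887% lower). Slc16a1 had the largest difference, 0.64 log2 units higher in Dusp2-/-, and Pfkfb3 the lowest, at -0.39. Tpi1 (0.35), Ldha (0.33), Slc2a1 (0.32) and Pgam1 (0.27) were also higher in the Dusp2-/- library, and Hk2 differed by 0.14.

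**Figure D3:**
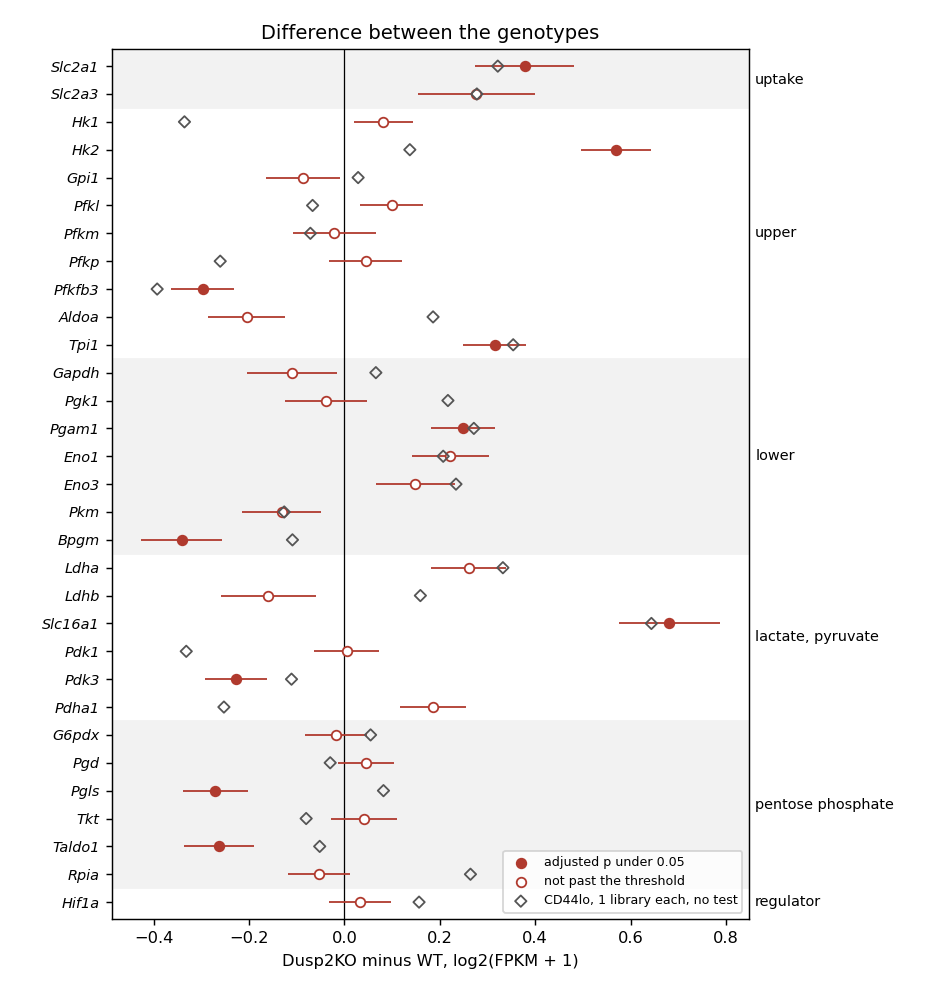
Difference between Dusp2-/- (Dusp2KO) and WT on the log2(FPKM + 1) scale, as circles with bars of 1 SE for the CD44hi pairs and as diamonds for the single CD44lo libraries. Slc16a1 has the largest value in both fractions, and Hk2 is at 0.57 in CD44hi and at 0.14 in CD44lo.

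Whether the fraction difference itself differed between genotypes was tested as an interaction. In limma 0 of the 31 genes passed, against 4.22% of all genes tested (2.73% higher and 1.49% lower), with 7 at an unadjusted p under 0.05, and limma voom on recovered reads also called 0. In simulated data the interaction test recovered 0% of differences of 0.5 log2 units and 13.4% of differences of 1. It could thus miss differences of the size seen here, and 0 calls do not show that the genotypes are alike. The simulated noise was the larger SD of each gene's CD44hi pairs, and few genes were changed. The recovery rates therefore need not hold for the measured data. The smallest adjusted p-values were 0.0722 for Hk1, 0.082 for Pdha1 and 0.0941 for Hk2. Their differences between CD44hi and CD44lo were higher in Dusp2-/- by 0.42, 0.44 and 0.43 log2 units. Across all genes tested the interaction value correlated with gene length (Spearman rho 0.48). Hk1, Pdha1 and Hk2 measured 8667, 3793 and 6063 bases, against a median of 4321. With the length trend removed, the calls among all genes went from 265 higher and 144 lower to 108 and 34. Without WT CD44hi 1 the interaction called 11 of the 31 genes, without WT CD44hi 2 it called 5, and rescaled to a common total it called 1, where the split of all genes went from 265 higher and 144 lower to 379 and 43.

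Glucose uptake was led by Slc2a1, which encodes GLUT1, the main glucose transporter of activated T cells. It was at 11.9 FPKM in WT CD44lo and 15.2 FPKM in Dusp2-/- CD44lo, against 20.4 and 16.5 FPKM in WT CD44hi and 25.0 and 23.3 FPKM in Dusp2-/- CD44hi. All CD44hi libraries were above both CD44lo libraries, and both Dusp2-/- CD44hi libraries were above the WT pair. The rise with CD44 was 0.58 in WT (SE 0.13, adjusted p = 0.0188) and 0.64 in Dusp2-/- (SE 0.13, adjusted p = 0.00939), and 0.61 adjusted for genotype (adjusted p = 0.00417). In CD44hi the mean rose from 18.4 ± 2.75 FPKM (SD, n = 2) in WT to 24.1 ± 1.25 FPKM in Dusp2-/- (log2 difference 0.38, SE 0.10, limma adjusted p = 0.0394). That genotype call was lost without Dusp2-/- CD44hi 1 (0.33, adjusted p = 0.117) and without a variance trend (adjusted p = 0.0561).

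Slc2a3, the gene of the high-affinity transporter GLUT3, was lower, with 4.10 FPKM in WT CD44lo and 5.19 FPKM in Dusp2-/- CD44lo. The CD44hi libraries held 7.04 and 5.26 FPKM in WT and 7.69 and 7.51 FPKM in Dusp2-/-, so that WT CD44hi 2 was close to Dusp2-/- CD44lo. The rise with CD44 passed in Dusp2-/- (0.47, adjusted p = 0.0455) and adjusted for genotype (0.47, adjusted p = 0.0201), and in WT the value was 0.48 (adjusted p = 0.0605). Without Dusp2-/- CD44hi 1 or 2 the adjusted p in Dusp2-/- was 0.0712 or 0.0554, and adjusted for genotype it was 0.0575 or 0.058, and 0.0606 without Dusp2-/- CD44lo. With no minimum these were 0.208 and 0.0679, and in Dusp2-/- the call was also lost with quantile normalization (0.073), without a variance trend (0.0529) and with the length trend removed (0.0811). The WT rise of Slc2a3 passed in limma voom, with the length trend removed and with a replicate block. Slc2a1 made up 74.3 to 76.5% of the FPKM of the pair in every library.

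Hexokinases phosphorylate glucose and so keep it in the cell. Hk2, the inducible isoenzyme, was at 10.2 FPKM in WT CD44lo and 11.3 FPKM in Dusp2-/- CD44lo, 17.1 and 15.3 FPKM in WT CD44hi, and 24.6 and 24.4 FPKM in Dusp2-/- CD44hi. CD44lo, WT CD44hi and Dusp2-/- CD44hi did not overlap. The rise with CD44 was 0.62 in WT (SE 0.09, adjusted p = 0.00429) and 1.06 in Dusp2-/- (SE 0.09, adjusted p = 0.000427), where CD44hi held 2.18 times the FPKM of CD44lo. Between genotypes in CD44hi it rose from 16.2 ± 1.25 to 24.5 ± 0.155 FPKM (SD, n = 2; log2 difference 0.57, SE 0.07, limma adjusted p = 0.00442).

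Hk1, the constitutive isoenzyme, behaved differently. Its levels were 22.0 FPKM in WT CD44lo, 17.4 and 16.9 FPKM in WT CD44hi, 17.2 FPKM in Dusp2-/- CD44lo and 18.4 and 18.0 FPKM in Dusp2-/- CD44hi. Only the WT CD44lo library stood above the rest, and the fall with CD44 was called in WT (-0.34, adjusted p = 0.0209) and lost without Dusp2-/- CD44hi 1 (adjusted p = 0.051) or 2 (adjusted p = 0.0507). Hk2 made up 31.6% of hexokinase FPKM in WT CD44lo and 39.6% in Dusp2-/- CD44lo, 49.5 and 47.5% in WT CD44hi, and 57.2 and 57.5% in Dusp2-/- CD44hi. Its share thus was lowest in CD44lo and above that of Hk1 in the Dusp2-/- CD44hi pair alone.

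**Figure D4:**
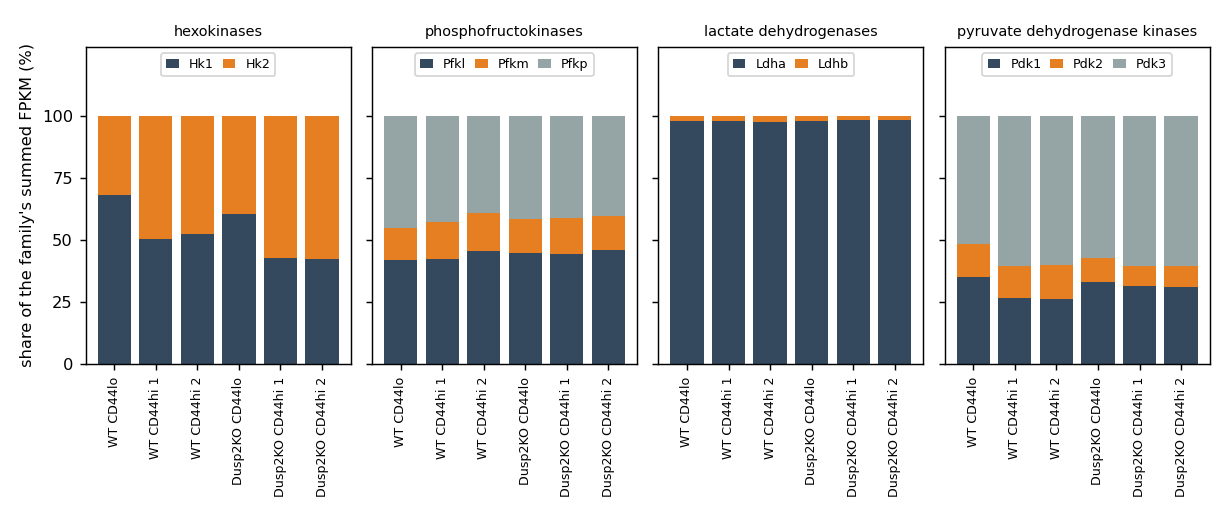
Share of each isoenzyme in the summed FPKM of its family (%), for hexokinases, phosphofructokinases, lactate dehydrogenases and pyruvate dehydrogenase kinases, in the 6 libraries (Dusp2KO is Dusp2-/-). The Hk2 share runs from 31.6% to 57.5%, while Ldha stays above 97% in every library.

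Phosphofructokinase commits sugar to glycolysis. Pfkl held 42.0 to 46.2%, Pfkp 39.1 to 45.0% and Pfkm 13.0 to 15.4% of its FPKM, with little movement between libraries. Pfkl was at 16.3 FPKM in WT CD44lo and 15.5 FPKM in Dusp2-/- CD44lo, against 17.6 and 18.8 FPKM in WT CD44hi and 19.7 and 19.4 FPKM in Dusp2-/- CD44hi. It was the one member of the family called, higher in CD44hi in Dusp2-/- (0.32, SE 0.08, adjusted p = 0.0217). Without Dusp2-/- CD44hi 1 or 2 its adjusted p was 0.118 or 0.0964, with no minimum 0.06, and with the length trend removed 0.0744 (difference 0.21).

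Pfkfb3 makes fructose 2,6-bisphosphate, the activator of phosphofructokinase. It was at 12.4 FPKM in WT CD44lo, 12.1 and 11.9 FPKM in WT CD44hi, 9.22 FPKM in Dusp2-/- CD44lo and 9.68 and 9.44 FPKM in Dusp2-/- CD44hi. All Dusp2-/- libraries were below all WT libraries and the fractions overlapped. The fall in Dusp2-/- CD44hi was -0.30 (SE 0.07, limma adjusted p = 0.022), with adjusted p = 0.121 or 0.177 without Dusp2-/- CD44hi 1 or 2 and 0.0525 when rescaled to a common total. Pfkfb3 lies on chromosome 2, which also carries Dusp2. Pdk1, Gpd2 and Slc2a6 are among other genes there, with genotype differences in CD44hi of 0.0045, 0.43 and 0.54. Whether position plays a part in any of these values was not tested.

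Tpi1, which interconverts the triose phosphates, was at 65.2 FPKM in WT CD44lo and 83.6 FPKM in Dusp2-/- CD44lo, 98.9 and 96.7 FPKM in WT CD44hi, and 126 and 118 FPKM in Dusp2-/- CD44hi. The fractions did not overlap, and within each fraction Dusp2-/- was above WT. CD44hi exceeded CD44lo by 0.58 in WT (adjusted p = 0.0037) and 0.54 in Dusp2-/- (adjusted p = 0.00334), and Dusp2-/- exceeded WT in CD44hi by 0.32 (SE 0.07, adjusted p = 0.0182). Without Dusp2-/- CD44hi 1 or 2 the genotype difference had adjusted p = 0.182 or 0.0812. Gpi1 and Aldoa, the isomerase and aldolase of the upper steps, passed no comparison. Aldoa was at 249 FPKM in WT CD44lo, 266 and 293 FPKM in WT CD44hi, 284 FPKM in Dusp2-/- CD44lo and 243 and 241 FPKM in Dusp2-/- CD44hi, highest in a different fraction in each genotype (0.16 in WT, adjusted p = 0.259; -0.23 in Dusp2-/-, adjusted p = 0.106).

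In lower glycolysis Pgam1, the phosphoglycerate mutase, showed the pattern of Tpi1. It was at 102 FPKM in WT CD44lo and 123 FPKM in Dusp2-/- CD44lo, 143 and 151 FPKM in WT CD44hi, and 176 and 174 FPKM in Dusp2-/- CD44hi. Again all CD44hi libraries were above CD44lo, and Dusp2-/- above WT within each fraction. Its rise with CD44 was 0.52 in WT (adjusted p = 0.00587) and 0.50 in Dusp2-/- (adjusted p = 0.00473), and the rise with Dusp2 loss in CD44hi was 0.25 (SE 0.07, adjusted p = 0.0381). Without Dusp2-/- CD44hi 1 or 2 that last value had adjusted p = 0.284 or 0.266, and without a variance trend 0.0534.

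Gapdh and Pgk1 carry out the first oxidation and the first ATP-yielding step. Pgk1 was at 275 FPKM in WT CD44lo, 341 and 380 FPKM in WT CD44hi, 319 FPKM in Dusp2-/- CD44lo and 350 and 351 FPKM in Dusp2-/- CD44hi. A rise with CD44 was called in WT (0.39, adjusted p = 0.0367; adjusted p = 0.128 without either Dusp2-/- CD44hi library, 0.12 with no minimum, 0.0913 with median-ratio factors and 0.066 with a replicate block), and in Dusp2-/- the value was 0.13 (adjusted p = 0.343). Gapdh was at 426 FPKM in WT CD44lo, 498 and 561 FPKM in WT CD44hi, 446 FPKM in Dusp2-/- CD44lo and 498 and 482 FPKM in Dusp2-/- CD44hi. All CD44hi libraries lay above both CD44lo libraries, but the differences, 0.31 in WT (adjusted p = 0.0911) and 0.13 in Dusp2-/- (adjusted p = 0.386), did not pass. Gapdh, Aldoa, Pgk1, Pgam1, Eno1, Ldha and Ldhb have near-identical pseudogene copies with which reads can be shared, so their values are uncertain to that extent, and the copies Gapdh-ps15, Gapdh-ps16 and Eno1b were at no more than 0.363 FPKM.

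Enolase was mostly Eno1, with 88.5 to 89.9% of the family's FPKM. Eno1 was at 147 FPKM in WT CD44lo, 156 and 176 FPKM in WT CD44hi, 170 FPKM in Dusp2-/- CD44lo and 195 and 191 FPKM in Dusp2-/- CD44hi, and passed no comparison (genotype in CD44hi 0.22, adjusted p = 0.087). Eno3, the isoenzyme best known from muscle, was at 16.5 and 19.5 FPKM in WT and Dusp2-/- CD44lo, 20.3 and 22.9 FPKM in WT CD44hi and 25.1 and 22.9 FPKM in Dusp2-/- CD44hi. Its rise with CD44 passed in WT (0.37, adjusted p = 0.0404) and adjusted for genotype (0.33, adjusted p = 0.0281). The adjusted value had adjusted p = 0.0992 or 0.0598 without Dusp2-/- CD44hi 1 or 2, 0.0567 without WT CD44hi 1 and 0.0658 without WT CD44lo. It was also lost with no minimum (0.0567), with median-ratio factors (0.0591) and with a replicate block (0.116). The WT call was lost with no minimum (adjusted p = 0.161), with median-ratio factors (0.0748), with quantile normalization (0.0602) and without a variance trend (0.0603).

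Pkm, pyruvate kinase, which makes the last ATP of the pathway, was at 251 and 230 FPKM in WT and Dusp2-/- CD44lo and at 262 to 311 FPKM in CD44hi, with 0.25 in each genotype and no call (adjusted p = 0.114 and 0.0955). Its splice forms cannot be told apart in gene-level values. Bpgm, which diverts a lower intermediate to 2,3-bisphosphoglycerate, was at 5.25 FPKM in WT CD44lo, 4.82 and 5.30 FPKM in WT CD44hi, 4.80 FPKM in Dusp2-/- CD44lo and 3.66 and 3.90 FPKM in Dusp2-/- CD44hi. The Dusp2-/- CD44hi pair stood below the other 4 libraries, and the fall from WT was -0.34 (SE 0.08, adjusted p = 0.0296; adjusted p = 0.2 or 0.113 without Dusp2-/- CD44hi 1 or 2). That call was also lost when rescaled to a common total (adjusted p = 0.0512), in limma voom (0.0688) and with the length trend removed (0.078). Its FPKM rested on 137 to 359 recovered reads per library, the fewest of the 31 genes.

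**Figure D5:**
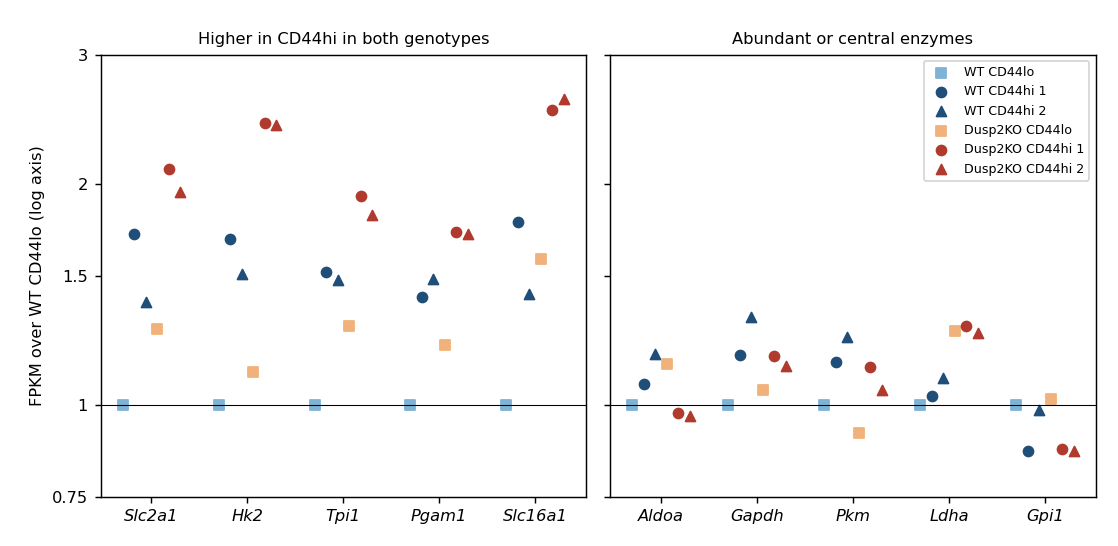
FPKM of each library divided by that of WT CD44lo, on a log axis. The left panel holds the genes that rose with CD44 in both genotypes. The right panel holds Aldoa, Gapdh, Pkm, Ldha and Gpi1, a selection of other enzymes that leaves out the abundant Pgk1 and Eno1. On the left Slc16a1 and Hk2 exceed 2 times the WT CD44lo level in both Dusp2-/- CD44hi (Dusp2KO) libraries, and Slc2a1 in Dusp2-/- CD44hi 1. On the right all points stay below 1.5 times.

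Lactate leaves the cell through monocarboxylate transporters, of which Slc16a1 encodes MCT1. Slc16a1 was at 27.7 FPKM in WT CD44lo and 43.8 FPKM in Dusp2-/- CD44lo, 49.2 and 39.3 FPKM in WT CD44hi, and 69.9 and 72.3 FPKM in Dusp2-/- CD44hi. The Dusp2-/- CD44lo library lay between the WT CD44hi libraries, so the fractions overlapped across genotypes but not within them. Within genotypes it rose with CD44 by 0.65 in WT (SE 0.13, adjusted p = 0.0136) and 0.69 in Dusp2-/- (SE 0.13, adjusted p = 0.00774). In CD44hi it rose from 44.2 ± 7.02 FPKM (SD, n = 2) to 71.1 ± 1.69 FPKM with Dusp2 loss, 0.68 log2 units (SE 0.11, limma adjusted p = 0.00739), and the interaction value was 0.04 (adjusted p = 0.91).

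Ldha, which turns pyruvate into lactate, held 97.7 to 98.5% of lactate dehydrogenase FPKM. It was at 309 FPKM in WT CD44lo, 318 and 337 FPKM in WT CD44hi, 390 FPKM in Dusp2-/- CD44lo and 396 and 388 FPKM in Dusp2-/- CD44hi. All Dusp2-/- libraries were above all WT libraries, while the fractions within Dusp2-/- overlapped. The genotype difference in CD44hi was 0.26 (SE 0.08) and just missed the threshold (adjusted p = 0.0515), which it passed under 8 of the other settings, limma voom and leaving out either WT CD44hi library among them. Its difference between fractions was 0.08 in WT (adjusted p = 0.568) and 0.01 in Dusp2-/- (adjusted p = 0.947). Ldhb, the subunit that favours the reverse reaction, was at 6.06 to 7.87 FPKM and passed no comparison.

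Pyruvate dehydrogenase kinases switch off the entry of pyruvate into mitochondria. Pdk3 was the most abundant, at 25.4 FPKM in WT CD44lo, 29.1 and 31.3 FPKM in WT CD44hi, 23.5 FPKM in Dusp2-/- CD44lo and 25.3 and 25.9 FPKM in Dusp2-/- CD44hi. It fell in Dusp2-/- CD44hi by 0.23 log2 units (SE 0.07, adjusted p = 0.0454; without Dusp2-/- CD44hi 1 or 2 adjusted p = 0.271 or 0.213, and without WT CD44hi 2 adjusted p = 0.0612). It was also lost under each of the 3 other scalings, without a variance trend and with the length trend removed (adjusted p = 0.0614 to 0.0825). Pdk1 was at 17.4 FPKM in WT CD44lo and at 12.8 to 13.7 FPKM in the other 5 libraries. It fell with CD44 in WT (-0.37, adjusted p = 0.0211; 0.0676 with no minimum), and in Dusp2-/- the value was -0.03 (adjusted p = 0.787; interaction 0.34, adjusted p = 0.13).

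Pdha1, the catalytic subunit of pyruvate dehydrogenase that these kinases act on, was at 30.1 FPKM in WT CD44lo, 26.9 and 29.5 FPKM in WT CD44hi, 25.1 FPKM in Dusp2-/- CD44lo and 31.7 and 32.7 FPKM in Dusp2-/- CD44hi. The Dusp2-/- CD44hi pair was highest and the Dusp2-/- CD44lo library lowest. The rise with CD44 passed in Dusp2-/- (0.35, SE 0.09, adjusted p = 0.0193; adjusted p = 0.0573 or 0.0922 without Dusp2-/- CD44hi 1 or 2, and 0.0814 with no minimum), and in WT the value was -0.09 (adjusted p = 0.457). Pdha1, Pdk3, Pgk1 and G6pdx are X-linked, and Xist was at 15.1 and 15.5 FPKM in the Dusp2-/- CD44hi pair alone. What that difference between libraries adds to their values was not tested.

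The oxidative pentose phosphate enzymes G6pdx (27.9 to 32.3 FPKM) and Pgd (41.3 to 44.7 FPKM), which make NADPH, passed no comparison. Pgls, the lactonase between them, was at 17.0 FPKM in WT CD44lo, 19.3 and 20.8 FPKM in WT CD44hi, 18.1 FPKM in Dusp2-/- CD44lo and 16.2 and 16.7 FPKM in Dusp2-/- CD44hi. It fell in Dusp2-/- CD44hi by 0.27 log2 units (SE 0.07, adjusted p = 0.0312; adjusted p = 0.199 or 0.137 without Dusp2-/- CD44hi 1 or 2, and 0.0541 when rescaled to a common total).

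In the non-oxidative part, transketolase and transaldolase, which shuttle carbon back to glycolysis, were called in opposite directions between fractions. Tkt was at 84.2 and 79.6 FPKM in WT and Dusp2-/- CD44lo, 101 and 99.2 FPKM in WT CD44hi, and 107 and 98.7 FPKM in Dusp2-/- CD44hi. It rose with CD44 in Dusp2-/- (0.37, adjusted p = 0.0158; adjusted p = 0.137 without Dusp2-/- CD44hi 1, 0.0689 with no minimum and 0.0523 with the length trend removed) and adjusted for genotype (0.31, adjusted p = 0.0248; 0.106 or 0.0829 without Dusp2-/- CD44hi 1 or 2, 0.0764 without Dusp2-/- CD44lo and 0.0759 without WT CD44hi 1, 0.0532 with median-ratio factors and 0.0746 with a replicate block).

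Taldo1, the transaldolase, was at 86.9 and 83.8 FPKM in WT and Dusp2-/- CD44lo, 72.7 and 81.2 FPKM in WT CD44hi, and 64.5 and 63.3 FPKM in Dusp2-/- CD44hi. All CD44hi libraries were below both CD44lo libraries, and the Dusp2-/- CD44hi pair was lowest. It fell with CD44 in Dusp2-/- (-0.39, adjusted p = 0.0165; adjusted p = 0.0532 or 0.0713 without Dusp2-/- CD44hi 1 or 2, and 0.0873 with no minimum) and between genotypes in CD44hi (-0.26, adjusted p = 0.0422; 0.176 or 0.233 without the same libraries, 0.0735 with median-ratio factors, 0.056 when rescaled and 0.0649 without a variance trend). Adjusted for genotype the fall was -0.28 (adjusted p = 0.0479), with adjusted p = 0.141 or 0.164 without Dusp2-/- CD44hi 1 or 2, 0.194 without Dusp2-/- CD44lo and 0.134 without WT CD44hi 1, and from 0.0505 to 0.115 under 6 other settings (no minimum, rescaling, no variance trend, robust variance, limma voom and the replicate block). Rpia, which makes ribose 5-phosphate, was at 10.8 FPKM in WT CD44lo and at 13.1 to 14.4 FPKM in the other 5 libraries. It rose with CD44 in WT (0.37, adjusted p = 0.018), and in Dusp2-/- the value was 0.05 (adjusted p = 0.638; interaction -0.32, adjusted p = 0.132).

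Hif1a, the oxygen-regulated activator of many glycolytic genes, was at 26.6 FPKM in WT CD44lo, 33.1 and 32.1 FPKM in WT CD44hi, 29.8 FPKM in Dusp2-/- CD44lo and 32.2 and 34.5 FPKM in Dusp2-/- CD44hi. Both CD44lo libraries were below the CD44hi libraries. It rose with CD44 in WT (0.28, adjusted p = 0.0432; 0.097 or 0.0972 without Dusp2-/- CD44hi 1 or 2, and 0.0634 to 0.0993 with no minimum, under each of the 3 other scalings and without a variance trend), with 0.16 in Dusp2-/- (adjusted p = 0.156). Its genotype value in CD44hi was 0.03 (adjusted p = 0.738).

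Further genes of the surroundings of the pathway came from lists fixed by function, with earlier results of these data known. Their calls were not followed through the other settings. With no minimum on FPKM, 1 of 18122 rows was higher and 1 lower in the genotype comparison, and 22 and 17 in the interaction. Among 17 tested genes of the HIF-1 system and its targets, 3 were higher (17.6%) and 8 lower (47.1%) in Dusp2-/- CD44hi, against 12.9% and 13.8% of all genes tested. Egln3, a HIF prolyl hydroxylase that HIF induces, rose by 0.58 (adjusted p = 0.00666). Vhl, which marks HIF-1α for degradation, fell by 0.50, the mitophagy receptor Bnip3l by 0.55 and the MAX partner Mxi1 by 0.44. With CD44, adjusted for genotype, 4 were higher and 4 lower (23.5% each, against 16.6% and 10.8% of all genes). They were led by the carbonic anhydrase Car12 (0.88, adjusted p = 0.00124) and Ddit4, an inhibitor of mTORC1 signalling (-0.63). Egln3 (0.58) and Ero1a, an oxidase of disulfide bond formation (0.74), came next. The list held calls in both directions. Higd1a passed the interaction (-0.56, adjusted p = 0.0496), at 13.9 FPKM in WT CD44lo, 20.5 and 20.7 FPKM in WT CD44hi, 16.9 FPKM in Dusp2-/- CD44lo and 16.0 and 17.1 FPKM in Dusp2-/- CD44hi.

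Of 7 tested genes of glucose sensing and restraint, Txnip had the smallest p in each fraction comparison. Txnip, an arrestin-family protein that lowers glucose uptake, was at 48.3 FPKM in WT CD44lo and 41.0 FPKM in Dusp2-/- CD44lo, 18.1 and 18.5 FPKM in WT CD44hi, and 11.9 and 12.0 FPKM in Dusp2-/- CD44hi. Its order was the reverse of that of Hk2, with no overlap between fractions or between the CD44hi genotypes. It fell with CD44 by 1.36 in WT (adjusted p = 0.000107) and 1.69 in Dusp2-/- (adjusted p = 7.31e-05), and in Dusp2-/- CD44hi by 0.57 (adjusted p = 0.00257). In the genotype comparison, where 12.9% of all genes were called higher and 13.8% lower, 1 of the 7 rose, the AMP kinase subunit Prkaa1 (0.42), and 3 fell, Txnip, the kinase Stk11 (-0.26), which activates it, and its subunit Prkag1 (-0.32).

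Of 23 tested genes of other sugar and monocarboxylate handling, 5 were higher (21.7%) and 1 lower (4.35%) in Dusp2-/- CD44hi, against 12.9% and 13.8% of all genes tested. Galm, which interconverts the anomers of sugars, fell by 0.69 (adjusted p = 0.00376), and Tigar, a fructose 2,6-bisphosphatase, rose by 0.53 (adjusted p = 0.00586), Gpd2 of the glycerol phosphate shuttle by 0.43 and Prps1, which makes the ribose donor of nucleotides, by 0.36. With CD44, adjusted for genotype, 9 were higher (39.1%) and 2 lower (8.70%), against 16.6% and 10.8% of all genes, led by the transporter Slc2a6 (0.81, adjusted p = 0.00191), Pgam2 (-0.73), Galm (0.50) and Slc16a6 (0.74). The group means of the transporter Slc2a6 followed the order seen for Slc16a1. Slc2a6 was at 8.50 and 14.0 FPKM in WT and Dusp2-/- CD44lo, 18.7 and 14.3 FPKM in WT CD44hi and 24.5 and 24.1 FPKM in Dusp2-/- CD44hi. Its Dusp2-/- CD44lo library lay below both WT CD44hi libraries, unlike that of Slc16a1.

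Of 18 tested genes that carry pyruvate and reducing equivalents into mitochondria, 4 were higher (22.2%) and 2 lower (11.1%) in Dusp2-/- CD44hi, against 12.9% and 13.8% of all genes tested. Pdk2, another pyruvate dehydrogenase kinase, fell by 0.77 (adjusted p = 0.00352), from 6.39 and 7.24 FPKM in WT CD44hi to 3.43 and 3.72 FPKM in Dusp2-/- CD44hi, and was at 6.72 and 4.04 FPKM in WT and Dusp2-/- CD44lo. Pdk2 and Pdk3 were both lower there, and Pdk1 held 31.0 to 31.6% of the kinases' FPKM in Dusp2-/- CD44hi against 26.3 to 26.5% in WT CD44hi. Pdp2, a phosphatase that opposes the kinases, rose by 0.48 (adjusted p = 0.0264), and Dlat, another subunit of pyruvate dehydrogenase, by 0.28 (adjusted p = 0.0289). Pdpr, the regulatory subunit of the phosphatase, rose by 0.37 and passed the interaction (1.38, adjusted p = 0.0251). Its level was 2.73 FPKM in Dusp2-/- CD44lo and 5.34 to 7.85 FPKM in the other 5 libraries, so that the result rests on that library. With CD44, adjusted for genotype, 4 of the 18 rose (22.2%) and 0 fell, against 16.6% and 10.8% of all genes, led by the aspartate-glutamate carrier Slc25a13 (0.76, adjusted p = 0.00134) and Me2 (0.38).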

How the data were processed

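RNA-seq of 6 libraries was analysed, 2 CD44hi and 1 CD44lo per genotype, grouped by sample title. The authors deposited 1 table in FPKM, and per the submitters' processing notes reads were aligned with HISAT2 2.0.5, with the builds mm39 and hg38 named without a role. Which counter, annotation and strand setting were used is not given in the sources used here, and 0 columns were left unused. Library preparation followed Illumina protocols per the labels, whose description field also reads 10X Genomics.

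limma 3.58.1 in R 4.3.3 was fitted to log2(FPKM + 1) of the 9691 genes that averaged 1 FPKM or more, with a variance trend, two-sided, and Benjamini-Hochberg adjustment at 0.05 over all of them. A model with 1 coefficient per group gave the genotype difference in CD44hi, the fraction difference in each genotype and their interaction, and an additive model gave the fraction difference adjusted for genotype. FPKM values above 0 in 2 or more libraries were whole multiples of 1 read in 16220 of 16220 rows (100%, tolerance 1e-06 reads). Of 200 perturbed rows 0 were, but they were searched over fewer multiples and all were above 0 in most libraries. The shares are thus not like for like. Whole reads were recovered for depth, length and limma voom, as the smallest whole numbers that fit. On them limma voom called 1498 genes higher and 1440 lower in Dusp2-/- CD44hi. Scripts were tested on simulated data (Python 3.11.15).

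The alternatives were pseudocounts of 0.1 and 0.5, no minimum and a minimum of 5 FPKM, 3 other scalings, no variance trend, robust variance, limma voom, removal of a loess trend on length (span 0.5), a replicate block, fits that each lacked 1 library, and the CD44hi libraries alone. The 31 genes named are all listed genes above the minimum, and from each other list up to 4 genes per comparison with the smallest p among those called. The members, the lists and the tests were chosen with earlier results of these data known. Same-numbered CD44hi libraries of the 2 genotypes did not deviate together (correlation 0.02). Protein sequences were not used here.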

Additional observations from a re-analysis of the deposited data

How the results depend on the processing

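Of 40 calls on the 31 genes, 11 held under every alternative run for them, 29 were lost in 1 or more and 0 turned direction. The 11 include the rises of Slc2a1, Hk2, Tpi1, Pgam1 and Slc16a1 adjusted for genotype, which held in all 18 alternatives. Counts of the 31 genes called follow. Dusp2-/- against WT in CD44hi gave 10, and 0 with no minimum on FPKM. CD44hi against CD44lo gave 11 in WT and 4 with no minimum, 10 in Dusp2-/- with 3 with no minimum and 19 when rescaled to a common total, and 9 adjusted for genotype with 15 rescaled and 15 with the length trend removed. The interaction gave 0, and 1 when rescaled. Leaving out 1 library at a time gave 2 to 16, 9 to 19, 5 to 18, 5 to 11 and, for the interaction, 0 to 11. Why these counts move was not tested. The fit with no minimum tests 18122 rows instead of 9691. Rescaling moved the median of all genes from 0.05 to 0.18 in Dusp2-/- and from -0.01 to 0.13 in the interaction, so its calls are relative to that shift.

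With a replicate block the counts were 11, 12, 14, 6 and, for the interaction, 3 (Hk1, Hk2 and Pdha1). Replicate numbers are shared by the CD44hi libraries only as numbers. Of 1984 values that were not called, 98 changed sign under an alternative and 0 of these passed the threshold. Between the CD44lo libraries, 0 genes differed 2-fold under each of the 8 alternatives. Groups of 1 and 2 libraries limit the precision, and Bpgm with 137 to 359 reads rests on the fewest of the 31 genes.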

Other observations

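The listed genes below the minimum of 1 FPKM entered no comparison. Slc16a3, which encodes the lactate exporter MCT4, was at 0.399 FPKM in WT CD44lo, 0.717 FPKM in Dusp2-/- CD44lo, 0.955 and 0.850 FPKM in WT CD44hi and 1.52 and 1.53 FPKM in Dusp2-/- CD44hi, that is 91 to 459 recovered reads. The groups stood in the same order as for Hk2. Slc16a1 was 45.9 to 69.4 times as abundant in FPKM, and the ratio was above 60 in both CD44lo libraries and at most 51.5 in CD44hi. Pfkfb4, a relative of Pfkfb3, was at 0.567 to 1.08 FPKM, lowest in Dusp2-/- CD44lo and highest in WT CD44lo. Aldoc, an aldolase best known from brain, was at 0.204 to 0.565 FPKM with no order by fraction or genotype.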
